A study of Mus musculus with 15 samples.

Results

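The genes described here encode the nuclear subunits of the mitochondrial respiratory chain and of ATP synthase, with cytochrome c and the complex I assembly factors named in the same series. They were taken from the array's annotation by symbol: every probe set with exactly 1 gene symbol that begins with Nduf, Uqcr, Cox4 to Cox8 or Atp5, or is Sdha, Sdhb, Sdhc, Sdhd, Cycs or Cyc1, with pseudogene symbols left out and the brightest probe set used for each gene. This gave 89 genes of the 22180 measured. Of these, 6 encode core subunits of complex I, 26 its accessory subunits and 8 its assembly factors. Complex II is covered by 4 genes, complex III by 8, cytochrome c by 1, complex IV by 19 and ATP synthase (complex V) by 17. Another 8 symbols of the rule, Cox6c, Ndufb2, Ndufs6 and Uqcr10 among them, share their probe sets with other genes and were not analysed here.

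The cells were mouse LSK cells, hematopoietic stem and progenitor cells sorted as lacking lineage markers and carrying Sca-1 and Kit, measured on 15 arrays in 3 groups of 5 biological replicates. Non-cultured cells were taken directly from the sort, another group was kept for 18 h in Myelocult medium without vesicles, and the last for 18 h in the same medium with extracellular vesicles (EV) shed by the AFT stromal line. No genotype, strain, age or vesicle dose is given in the labels. Nothing there says whether the replicates came from separate animals, so p-values measure the spread between these samples. Values are log2 signals, which in the whole table ran from 1.4 to 13.03.

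The respiratory chain passes electrons from NADH (complex I) and succinate (complex II) through ubiquinone to complex III, then by cytochrome c to complex IV, which reduces oxygen. Complexes I, III and IV pump protons out of the matrix, and ATP synthase uses the returning protons to make ATP. Most subunits are nuclear genes, whereas a small hydrophobic core is encoded by mitochondrial DNA. Hematopoietic stem cells are known for relying on glycolysis at rest and for raising mitochondrial respiration as they are activated and differentiate.

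The sorted identity was checked against fixed markers: the 8 measured LSK markers averaged 7.97 to 8.46 on the non-cultured arrays and 8.02 to 8.40 on the cultured ones, while the 6 T and NK cell markers stayed between 3.73 and 4.07. Ly6a, the gene of Sca-1, was not among the 8 measured. Of the LSK markers 3 were higher and 1 lower without EV against non-cultured cells, and 1 was higher with EV. Among all genes 6.75% were higher and 6.88% lower without EV, and 6.28% and 7.85% with EV. Of 8 stromal markers, with array means of 4.09 to 4.53, 2 were higher with EV against non-cultured cells: Cxcl12 (log2 0.48, limma adjusted p = 0.0233) and Col1a2 (0.31, limma adjusted p = 0.0231). Mature myeloid markers moved with culture: their mean over 8 genes was 5.56 to 6.36 on non-cultured arrays, 7.20 to 7.48 without EV and 7.09 to 7.5 with EV, and 5 of the 8 were called higher in each cultured group. In bulk RNA, fewer cells of a type and less RNA per cell cannot be told apart. The part of the myeloid and stromal changes in the results that follow was not tested. Array 1 with EV stood apart, with a mean correlation of 0.964 with its group against 0.974 to 0.976 for the others of that group.

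Culture lowered a broad subset of the nuclear respiratory genes, and hardly any rose. Set against non-cultured cells, the group without EV had 19 of the 89 lower (21.3%) and 1 higher, called by limma at a Benjamini-Hochberg adjusted p below 0.05. Among all genes tested in this comparison 13.6% were called, 6.88% lower and 6.75% higher. With EV against the same non-cultured arrays 25 of the 89 fell (28.1%) and none rose, where 14.1% of all genes were called, 7.85% lower and 6.28% higher. That count of 0 higher genes came from limma, with 2 genes at an unadjusted p under 0.05 in that direction, and other settings gave between 0 and 2. These comparisons share the 5 non-cultured arrays; 17 genes were lower in both.

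The falls were moderate in size. The median difference over the 89 genes was log2 -0.18 without EV and -0.28 with EV, against 0.01 and 0.04 over all genes. Respiratory genes were brighter than most: 82 of the 89 lay above the median signal of all genes. Bright genes were called more often in general, so a nearer background is the 3507 genes with a mean log2 signal of 7 or more. Of those, 17.4% were lower without EV and 22.3% with EV, against 28.1% and 35.1% of the 57 respiratory genes as bright. In the same set 16.7% were higher without EV, against 1 of the 57 respiratory genes (1.75%).

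**Figure D1:**
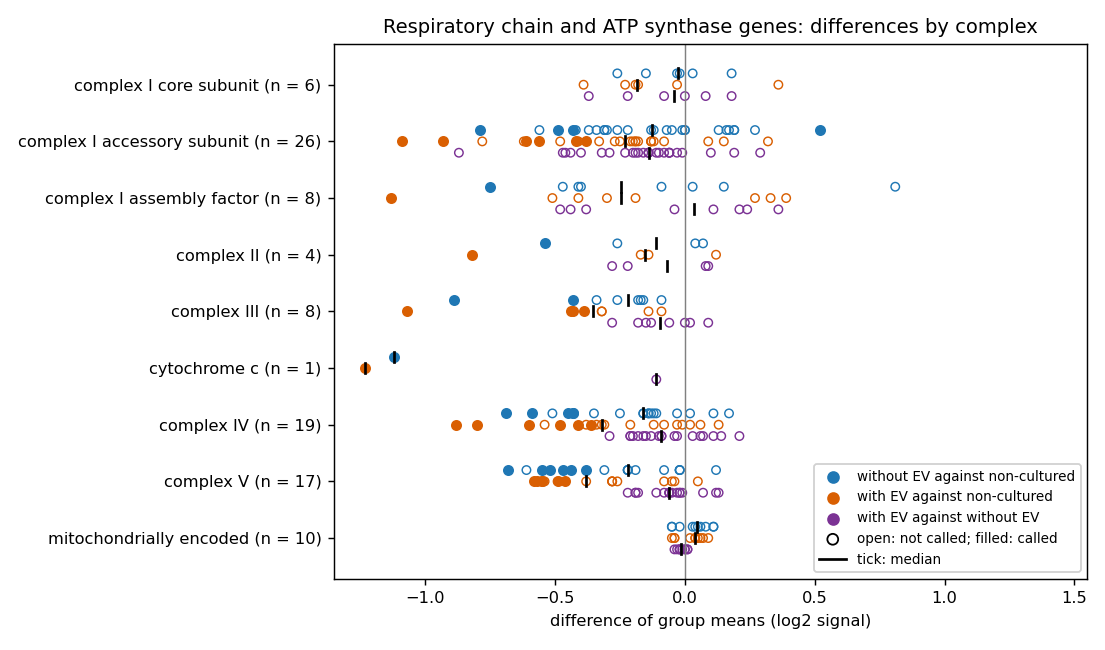
Each circle is 1 gene, placed by its difference of group means in log2 signal (horizontal axis) and by its complex (vertical axis), with colours for the 3 comparisons, filled circles for genes called by limma and ticks for medians. Filled circles lie almost all left of 0 in both comparisons with non-cultured cells, there are none with EV against without EV, and the 10 mitochondrially encoded genes lie between -0.05 and 0.11.

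Promoter sequence is shown for the genes that carry the result, because nuclear respiratory factor 1 (NRF1) is a textbook regulator of this gene set. RefSeq windows of 300 bases (250 before and 50 after the start, GRCm38.p6) were matched by gene identifier for 73 of the 89 genes. The letters GCGCATGC, part of the NRF1 site, were searched on both strands, where they can overlap each other in the palindrome. They occurred in 13 of the 73 genes (17.8%), against 4.07% of the 16918 genes of the array with a window and 2.71% of all 32851 windows of that length. Among genes that fell without EV, 4 of 17 held them (23.5%), and among the other 56 genes 9 did (16.1%). The stretches of 60 bases below come from the 4 that fell (Cycs, Sdhb, Cox6a1, Atp5g2) and from Ndufa6, the 1 gene that rose. Capitals mark the matched letters, and each stretch reads 5′ to 3′ on the gene's own strand.
Cycs, chr6:50566596-50566655, minus strand: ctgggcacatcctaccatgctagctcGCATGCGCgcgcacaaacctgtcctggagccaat
Sdhb, chr4:140961191-140961250, plus strand: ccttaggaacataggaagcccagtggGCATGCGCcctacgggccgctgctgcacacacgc
Cox6a1, chr5:115349087-115349146, minus strand: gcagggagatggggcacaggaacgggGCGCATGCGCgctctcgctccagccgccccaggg
Atp5g2, chr15:102671056-102671115, minus strand: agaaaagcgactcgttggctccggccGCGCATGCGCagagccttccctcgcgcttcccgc
Ndufa6, chr15:82354341-82354400, minus strand: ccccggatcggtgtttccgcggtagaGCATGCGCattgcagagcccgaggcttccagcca

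Counted from the annotated start, the match began at position -60 in Cycs, -54 in Sdhb, -162 in Cox6a1, -42 in Atp5g2 and -83 in Ndufa6. So the same letters stood upstream of genes that fell and of the one that rose. Other letters searched were the ETS core CCGGAAG, found in 26% of the 73 genes and in 12.7% of array genes, the YY1 core AAGATGGC (13.7% and 3.65%) and the GC box GGGGCGGGG (16.4% and 17.3%). Among genes that fell without EV the shares were 29.4%, 5.88% and 23.5% in that order. A match describes letters and is no evidence of binding.

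Complex I, the NADH dehydrogenase, is the largest complex and gave the most mixed picture. None of the 6 measured genes of the core, the part that holds the flavin and iron-sulfur clusters, was called in any comparison by limma. In each comparison 1 gene had an unadjusted p under 0.05. Leaving out arrays or changing settings called Ndufs7 higher with EV in a few fits. Ndufs3 was called lower with EV in 1 of the 15 fits that left out an array. Ndufv1 differed by log2 -0.26 without EV against non-cultured cells (SE 0.12), Ndufs3 by -0.15, Ndufs1 by -0.03, Ndufs8 by -0.02 and Ndufv2 by 0.03. Ndufs7 differed by 0.18 without EV and by 0.36 with EV (adjusted p = 0.0504), from a mean of 6.93 ± 0.18 (SD, n = 5) in non-cultured cells to 7.30 ± 0.16. Of the 26 accessory subunits, which surround and stabilise the core, 3 fell (11.5%) and 1 rose without EV, and 6 fell with EV (23.1%). Among all genes 6.88% were lower without EV and 7.85% with EV. Of the 3507 genes with a mean log2 signal of 7 or more, 17.4% and 22.3% were lower.

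Ndufa12, an accessory subunit near the flavin module, had the largest fall among them without EV. Its log2 signal was 10.23, 10.09, 10, 10.31 and 9.74 in the non-cultured arrays. Without EV it was 8.57, 9.49, 9.45, 9.32 and 9.58, and with EV 9.28, 8.99, 9.01, 9.41 and 9.04. Every cultured array was below every non-cultured one. The fall was 1.73-fold without EV (log2 -0.79, SE 0.17, limma adjusted p = 0.00462) and 1.90-fold with EV (log2 -0.93, SE 0.17, limma adjusted p = 0.00139). Its second probe set gave log2 -0.59 and -0.68, also called.

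Ndufa6, an accessory subunit of the LYR family that helps anchor the acyl carrier protein, went the other way. Non-cultured arrays read 8.81, 8.5, 8.91, 8.61 and 8.59. Those without EV read 9.24, 9.19, 8.96, 9.48 and 9.15, all higher than any non-cultured one. This rise was 1.44-fold (log2 0.52, SE 0.13, limma adjusted p = 0.0105) and was lost when non-cultured replicates 4 and 5 were left out (log2 0.47, adjusted p = 0.0684). With EV the signals were 8.58, 9.16, 9.03, 9.11 and 9.15, and the difference from non-cultured cells was not called (log2 0.32, limma adjusted p = 0.11). Array 1, at 8.58, was the lowest of that group and lay among the non-cultured values.

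The other complex I subunits called were called either without EV or with EV, and not in both cultured groups. Ndufb7 fell without EV (log2 -0.43, SE 0.11, limma adjusted p = 0.0156), from a mean of 8.12 to 7.69. Ndufa9 fell by log2 0.49 at an adjusted p of 0.0484 and was called in 5 of 15 limma fits that each left out 1 array. Neither was called with EV (log2 -0.25 for Ndufb7 and -0.19 for Ndufa9). Conversely Ndufb11, Ndufb8, Ndufc2, Ndufb5 and Ndufs4 were called lower with EV but not without, by log2 -1.09, -0.61, -0.56, -0.42 and -0.38, where without EV they differed by -0.22, -0.37, -0.42, -0.26 and -0.30. No test of the difference between the cultured groups was passed by any of these 7 genes. Ndufs4, an accessory subunit whose loss causes Leigh syndrome, was called in 7 of the 15 fits and Ndufc2 in 9. Ndufb11 was called in 14 of them, and Ndufb8 and Ndufb5 in all 15. Ndufa1, a small membrane subunit, differed by -0.56 without EV and -0.62 with EV (limma adjusted p = 0.0818 and 0.0501). Without non-cultured replicates 4 and 5, at 8.65 and 8.58 against 9.19 to 9.35, Ndufa1 was called in both (log2 -0.83 and -0.89, limma adjusted p = 0.0152 and 0.00963). Those arrays had the lowest means over the 89 genes in their group (7.69 and 7.62). Leaving out low reference arrays enlarges a fall by itself, so the added calls are no independent support. Ndufb10 differed by 0.27 and 0.15.

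Assembly factors build complex I but are not part of the finished enzyme, and 1 of the 8 measured (12.5%) was called lower in each cultured group. Among all genes 6.88% were lower without EV and 7.85% with EV. For genes with a mean log2 signal of 7 or more these shares were 17.4% and 22.3%, and for dimmer ones 4.89% and 5.13%. Ndufaf2, a chaperone of late assembly, read 7.97, 7.74, 7.82, 7.79 and 7.08 in non-cultured cells. In culture it read 7.33, 6.87, 7.08, 6.40 and 6.97 without EV and 5.99, 6.22, 6.90, 6.78 and 6.85 with EV. Non-cultured array 5 reached the range without EV, the arrays with EV were all below the non-cultured ones, and the cultured groups overlapped each other. It fell by log2 0.75 without EV (SE 0.21, limma adjusted p = 0.0272, called in 9 of 15 fits) and by 1.13 with EV (SE 0.21, limma adjusted p = 0.00164, called in all 15). Ndufaf1, an early assembly factor, differed by log2 0.81 without EV and missed the threshold (limma adjusted p = 0.066), with non-cultured arrays spread from 5.26 to 6.70; without non-cultured replicates 4 and 5 the difference was 1.18 (adjusted p = 0.00606). Ndufaf5 differed by -0.47 without EV and -0.51 with EV, and was not called in either. Ndufaf4 differed by 0.03 and -0.41, Ndufaf3 by -0.09 and 0.27 and Ndufaf7 by 0.15 and 0.39, also not called.

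Complex II, succinate dehydrogenase, also works in the citric acid cycle, and its 4 genes did not move alike. Sdhb, the iron-sulfur subunit, read 7.65, 6.94, 7.26, 7.23 and 7.32 in non-cultured cells. It read 6.78, 6.69, 6.76, 6.67 and 6.82 without EV and 6.45, 6.35, 6.56, 6.59 and 6.38 with EV. Here the 3 groups did not overlap at all: non-cultured arrays were highest and arrays with EV lowest. The fall from non-cultured cells was log2 -0.54 without EV (SE 0.11, limma adjusted p = 0.00259) and -0.82 with EV (SE 0.11, limma adjusted p = 6.26e-05).

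Between the cultured groups Sdhb differed by log2 -0.28 (SE 0.11), which missed the threshold over all genes (limma adjusted p = 0.62). The flavoprotein Sdha differed from non-cultured cells by 0.04 without EV and 0.12 with EV, and the membrane anchors Sdhc by 0.07 and -0.14 and Sdhd by -0.26 and -0.17. None of these 3 was called. Means for Sdha were 8.31 ± 0.11, 8.35 ± 0.18 and 8.43 ± 0.34 (SD, n = 5) in non-cultured cells, without EV and with EV.

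Complex III, which passes electrons from ubiquinol to cytochrome c, had all 8 of its measured genes below 0 in both comparisons with non-cultured cells. Of these, 2 were called lower without EV (25%) and 4 with EV (50%). Among all genes 6.88% and 7.85% were called lower, and among the 3507 with a mean log2 signal of 7 or more 17.4% and 22.3%. Over all genes 47.6% were below 0 without EV and 42.2% with EV. Of the 3507 with a mean log2 signal of 7 or more, 53.8% and 60.9% were. Uqcrq, a small subunit, read 8.36, 8.10, 8.28, 7.32 and 7.87 in non-cultured cells. Without EV it read 7.39, 7.31, 7.23, 6.55 and 6.99, and with EV 6.98, 7.04, 7.30, 6.70 and 6.56. Non-cultured array 4 was the lowest of its group and reached the range without EV. The fall was 1.85-fold without EV (log2 -0.89, SE 0.20, limma adjusted p = 0.00684) and 2.10-fold with EV (log2 -1.07, limma adjusted p = 0.00179).

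Uqcrfs1, the Rieske iron-sulfur protein, read 7.21, 7.38, 7.13, 7.0 and 6.80 in non-cultured cells. The cultured arrays lay close together, from 6.60 to 6.72 without EV and from 6.58 to 6.79 with EV, all below the non-cultured ones. It fell by log2 0.43 in each cultured group (SE 0.10, limma adjusted p = 0.00597 and 0.0058). Uqcrb and Uqcr11, small subunits, were called with EV (log2 -0.44 and -0.39) but not without (-0.16 and -0.26). Cyc1, cytochrome c1, differed by -0.34 and -0.32, Uqcrc2, a large scaffold subunit, by -0.18 and -0.09, and Uqcrh by -0.09 and -0.14, with no call.

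Cytochrome c, the soluble electron carrier between complexes III and IV and, once released, an activator of caspases, showed the largest fall of all 89 genes in both comparisons. Cycs read 9.31, 9.66, 9.24, 9.43 and 9.21 in non-cultured cells. It read 8.68, 8.17, 8.26, 8.12 and 8.06 without EV and 7.67, 8.18, 8.62, 8.22 and 8.02 with EV. All 10 cultured arrays were below the lowest non-cultured one, and the cultured groups overlapped each other. Cycs fell 2.17-fold without EV (log2 -1.12, SE 0.16, limma adjusted p = 0.000142) and 2.34-fold with EV (log2 -1.23, SE 0.16, limma adjusted p = 5.64e-05). Both calls were made in all 15 fits that left out 1 array.

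Cycs has 4 dimmer probe sets, of which 2 hold identical values. Without EV against non-cultured cells the others gave log2 -0.89 and -1.40, both called among all probe sets, and the identical pair gave -0.42, not called (limma adjusted p = 0.367). Cytochrome c and many small subunits have processed pseudogenes, and no statement on probe uniqueness was available in the sources used here. Signals of such genes may include copies.

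**Figure D2:**
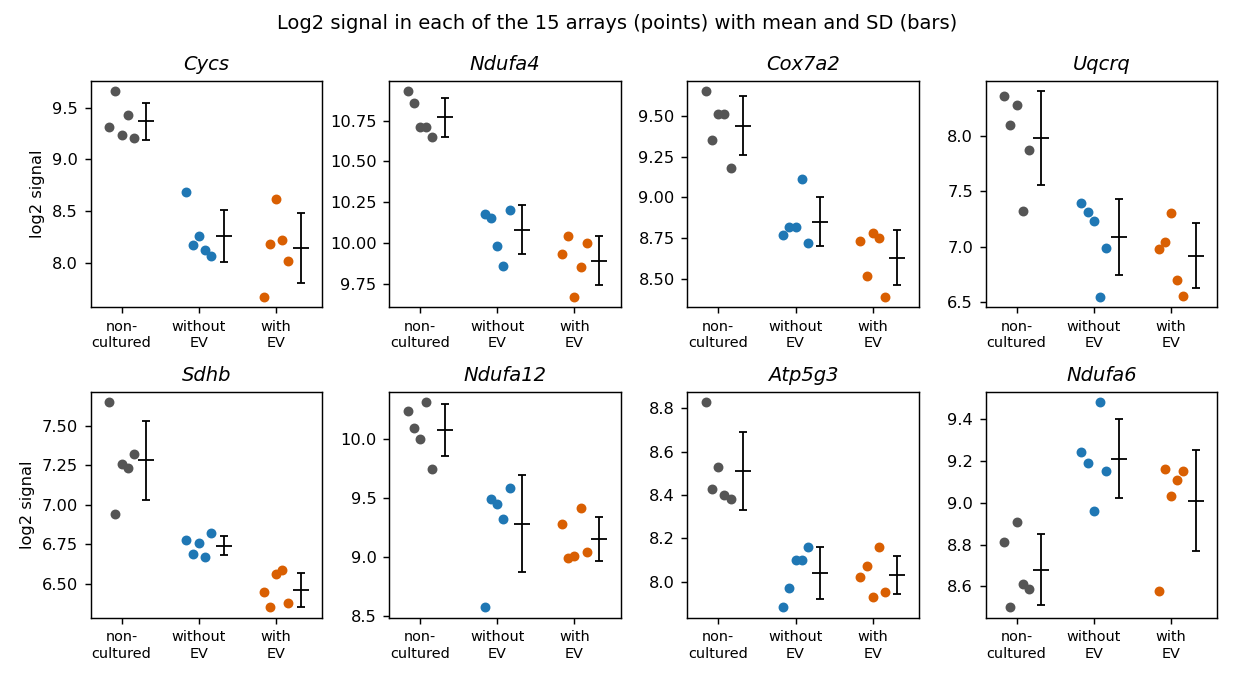
Each panel shows 1 gene, with its log2 signal (vertical axis) in the 5 arrays of each group (horizontal axis) as points and the mean with SD as bars; each panel has its own vertical range that does not start at 0. Cultured arrays lie below all non-cultured ones in Cycs, Ndufa4, Cox7a2, Sdhb, Ndufa12 and Atp5g3, overlap them slightly in Uqcrq, and lie above them without EV in Ndufa6.

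Complex IV, cytochrome c oxidase, had 5 of 19 genes that fell without EV (26.3%) and 6 with EV (31.6%). Among all genes 6.88% and 7.85% were lower, and among the 3507 with a mean log2 signal of 7 or more 17.4% and 22.3%. Ndufa4, first named as a complex I subunit and now assigned to complex IV, read 10.93, 10.86, 10.71, 10.71 and 10.65 in non-cultured cells. It read 10.18, 10.15, 9.98, 9.86 and 10.20 without EV and 9.93, 10.04, 9.67, 9.85 and 10 with EV. The cultured arrays were well below the others, with a tight spread in every group (SD 0.12 to 0.15). It fell by log2 0.69 without EV (SE 0.10, limma adjusted p = 0.000109) and by 0.88 with EV (SE 0.10, limma adjusted p = 1.13e-05).

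Cox7a2, the widely expressed form of subunit 7a, read 9.65, 9.35, 9.51, 9.51 and 9.18 in non-cultured cells. Without EV it read 8.77, 8.82, 8.82, 9.11 and 8.72, and with EV 8.73, 8.52, 8.78, 8.75 and 8.39. None of the cultured arrays reached the non-cultured range. The fall was 1.51-fold without EV (log2 -0.59, SE 0.11, limma adjusted p = 0.0015) and 1.75-fold with EV (log2 -0.80, SE 0.11, limma adjusted p = 9.60e-05). Cox5a (log2 -0.45 and -0.60), Cox8a (-0.43 and -0.41) and Cox6a1 (-0.43 and -0.36) fell in both cultured groups. With EV the call of Cox6a1 was made in 7 of 15 fits that left out 1 array and was lost without non-cultured replicates 4 and 5 (limma adjusted p = 0.0597), and quantile normalization ended the calls of Cox6a1 and Cox8a with EV. Cox6b1, which bridges the enzyme's dimer, was called with EV (-0.48) and not without (-0.35).

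Tissue isoforms allow a check of which form of complex IV these arrays can see. Signals of 4 heart, muscle or testis forms were below the median signal of all genes (4.88) in every group: group means were 3.51 to 3.66 for Cox8b, 3.46 to 3.49 for Cox8c, 2.35 to 2.57 for Cox7b2 and 4.55 to 4.66 for Cox7a1. The lung and hypoxia form Cox4i2 lay between 5.06 and 5.2, and Ndufa4l2, a hypoxia-inducible relative of Ndufa4, between 3.89 and 4.06. Since each probe set has its own response, these levels are not set against those of the common forms. None of these 6 genes was called in any comparison, nor were 2 brighter ones. The muscle form Cox6a2 had group means of 5.84 to 6.35 and differed by log2 -0.51 without EV and -0.38 with EV. The testis form Cox6b2 had means of 6.12 to 6.67 and differed by -0.25 and -0.54. In Cox4i1, the common form of the regulatory subunit 4, the differences were -0.12 and -0.32, with limma adjusted p = 0.595 and 0.0624. Cox7a2l, which joins complexes III and IV into supercomplexes, differed by -0.03 and -0.12.

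Complex V, the ATP synthase, had 16 of 17 genes below 0 in both comparisons with non-cultured cells. Over all genes 47.6% were below 0 without EV and 42.2% with EV, and of the 3507 with a mean log2 signal of 7 or more 53.8% and 60.9%. The same 6 genes (35.3%) were called lower in each. Among all genes 6.88% and 7.85% were called lower, and among those 3507 genes 17.4% and 22.3%. The 6 called genes span the catalytic head (Atp5b, the beta subunit), the central stalk (Atp5e) and the stalk that holds the head (Atp5o). The rotating membrane ring (Atp5g2 and Atp5g3) and the membrane part (Atp5mpl) are covered too. Atp5b read 10.31, 10.26, 10.14, 10.06 and 9.94 in non-cultured cells. Without EV it read 9.49, 9.68, 9.74, 9.47 and 9.74, and with EV 9.20, 9.74, 9.65, 9.74 and 9.51. The groups of cultured arrays lay wholly below. The call of Atp5e without EV (log2 -0.44, limma adjusted p = 0.031) was made in 11 of 15 fits that left out 1 array. Atp5b fell by log2 0.52 without EV (SE 0.11, limma adjusted p = 0.00499) and by 0.58 with EV (limma adjusted p = 0.00241).

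The ring subunit c is encoded by 3 genes that give the same mature protein and differ in the peptide that directs import. Atp5g3 read 8.83, 8.43, 8.53, 8.40 and 8.38 in non-cultured cells. It read 7.88, 7.97, 8.10, 8.10 and 8.16 without EV and 8.02, 8.07, 7.93, 8.16 and 7.95 with EV, with no overlap with the non-cultured arrays. It fell by log2 0.47 (SE 0.10, limma adjusted p = 0.00297) and 0.49 (limma adjusted p = 0.00237) in the 2 cultured groups.

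Atp5g2 read 10.61, 10.68, 10.64, 10.46 and 10.56 in non-cultured cells. In culture it ranged from 9.45 to 10.23 without EV and from 9.61 to 10.30 with EV, more widely than before culture (SD 0.32 and 0.29 against 0.09), and again without overlap. It fell by log2 0.68 and 0.55 (SE 0.15, limma adjusted p = 0.00584 and 0.0226), and its second probe set by 0.93 and 0.65. Atp5g1, whose group means of 4.84 to 5.03 lay near the median signal of all genes (4.88), differed by 0.12 and -0.08 and was not called.

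Not every subunit of ATP synthase was lower. Atp5l, a membrane subunit and the brightest of the 89 genes, read 11.37, 11.32, 11.25, 11.29 and 11.28 in non-cultured cells. Means were 11.30 ± 0.05 there, 11.29 ± 0.07 without EV and 11.27 ± 0.05 with EV (SD, n = 5), which is a difference of log2 -0.02 and -0.04 (SE 0.07). Atp5pb, the peripheral stalk subunit b, differed by -0.02 and 0.05. Atp5d differed by -0.61 without EV and just missed the threshold (limma adjusted p = 0.0604), while its dimmer probe set passed among all probe sets (-0.53, limma adjusted p = 0.0418). For Atp5h the probe sets went opposite ways without EV, with log2 -0.31 on the brighter one and 0.87 on the dimmer one, which was called. Without non-cultured replicates 4 and 5, at 8.11 and 8.25 against 8.83 to 8.96, the brighter one was called lower both without EV (log2 -0.61, limma adjusted p = 0.0313) and with EV (-0.83, limma adjusted p = 0.00477). Here too the arrays left out were the lowest of the reference, which enlarges the fall by itself.

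Genes of the same complexes that mitochondrial DNA encodes stayed level. The annotation named 10 of them by the symbols ND1, ND2, ND3, ND4, ND4L, ND5, ND6, CYTB, COX1 and COX3. Their mean log2 signal per array was 11.68, 11.78, 11.74, 11.67 and 11.75 in non-cultured cells, 11.78, 11.75, 11.82, 11.74 and 11.71 without EV, and 11.72, 11.80, 11.77, 11.70 and 11.76 with EV. All 3 groups covered the same narrow range. Single genes differed by log2 -0.05 to 0.11 without EV and by -0.05 to 0.09 with EV against non-cultured cells (SE 0.06 to 0.07), with 0 of 10 called by limma and 0 at an unadjusted p under 0.05 in any comparison.

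These mitochondrial signals lay between 11 and 12.14, in the top part of the table's scale, where an array may respond less to a change in RNA. Of the 52 other genes with a mean of 11 or more, 4 were higher and 6 lower without EV, with differences from -0.70 to 0.72. Among the 3507 genes with a mean of 7 or more, 16.7% were higher and 17.4% lower. Their differences ran from -5.39 to 5.26. Whether the array responds less at these signals was not tested. For comparison, the mean over the 17 nuclear complex V genes was 8.62 ± 0.11, 8.33 ± 0.07 and 8.28 ± 0.07 (SD, n = 5) in non-cultured cells, without EV and with EV. Over the 8 complex III genes it was 8.12 ± 0.13, 7.80 ± 0.07 and 7.72 ± 0.10. Whether the nuclear and mitochondrial genes differ in response was not tested.

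**Figure D3:**
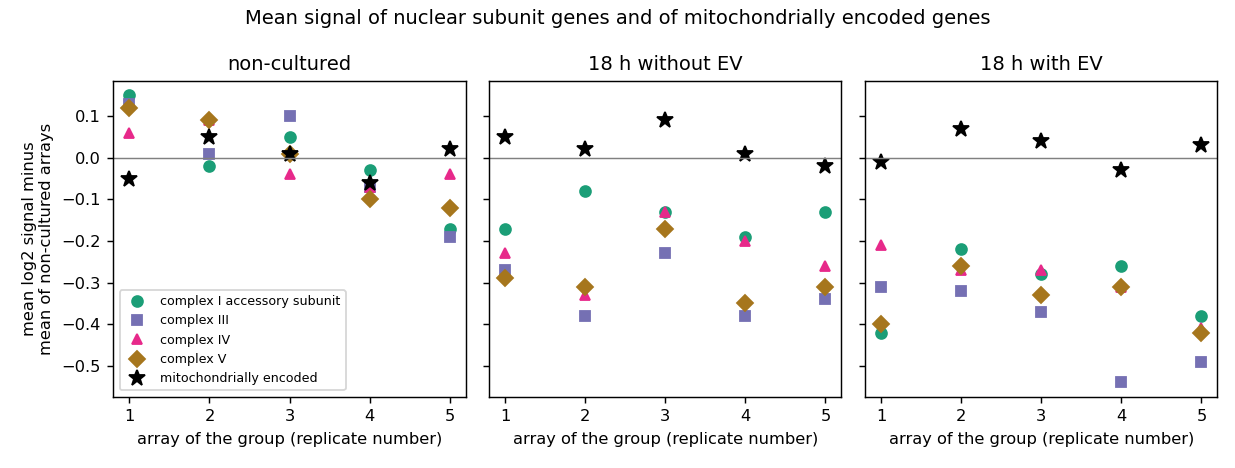
Each symbol is the mean log2 signal of 1 gene class on 1 array, minus that class's mean over non-cultured arrays (vertical axis), for the arrays of each group (horizontal axis, replicate number, which has no order). The nuclear classes shown are complex I accessory subunits and complexes III, IV and V. On all 10 cultured arrays they lie below 0 and below the star of the 10 mitochondrially encoded genes, which stays near 0. Other classes are not drawn. Among those, complex I core subunits averaged 7.35 and 7.25 on arrays 2 and 5 without EV, against a non-cultured mean of 7.24. Complex I assembly factors averaged 6.39 on array 5 with EV, against 6.36.

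Genes around the respiratory chain gave a mixed picture, counted here over fixed lists with limma calls over all genes. Over all genes 6.88% were lower and 6.75% higher without EV, and 7.85% and 6.28% with EV. Of the 3507 genes with a mean log2 signal of 7 or more, 17.4% were lower and 16.7% higher without EV. With EV these shares were 22.3% and 13.5%. Citric acid cycle enzymes fell in 6 of 18 cases without EV and 4 with EV, and none rose. Suclg2, a succinyl-CoA ligase subunit, fell 2.25-fold (log2 -1.17, SE 0.16, limma adjusted p = 7.86e-05) and the NADP-dependent dehydrogenase Idh2 1.71-fold (SE 0.09 on the log2 scale). Idh3a also fell (log2 -1.07), as did Pdhb (-0.52), a subunit of pyruvate dehydrogenase, which feeds the cycle. Citrate synthase Cs, named here outside the rule, differed by -0.04. Of 22 genes of ATP export, coupling and inner membrane shape 8 fell and 1 rose in each cultured group. The ADP/ATP carrier Slc25a5 fell 1.77-fold without EV (log2 -0.82, SE 0.11, limma adjusted p = 5.47e-05), the outer membrane channel Vdac1 by log2 0.56 and the cristae protein Chchd6 by 0.73. Atpif1, the inhibitor that blocks ATP synthase running in reverse, rose by log2 0.44 without EV (SE 0.08, limma adjusted p = 0.00146) and by 0.30 with EV.

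Other lists held calls in both directions. Their shares are to be read against the 13.6% and 14.1% of all genes called without and with EV. Assembly factors outside the Nduf series had 3 higher and 2 lower of 45 without EV, and 1 and 2 with EV, a smaller share than over all genes. The complex I assembly factor Tmem126b rose 2.50-fold without EV (log2 1.32, SE 0.21, limma adjusted p = 0.000467), Coa4 by log2 0.83 and Cox15, of heme A synthesis, by 0.53, while the inner membrane insertase Cox18 fell by 0.65. Genes of ubiquinone synthesis and reduction had 4 higher and 4 lower of 19 without EV, and 2 and 5 with EV, among them Coq9 (log2 0.60), Etfdh (0.35), Coq10b (-1.45) and Etfb (-0.58) without EV. Iron-sulfur and heme supply genes had 2 higher and 2 lower of 16 without EV, and 2 and 4 with EV. There the mitochondrial chaperone Hspa9 fell by log2 0.75 and the cluster assembly gene Isca1 by 0.73, and the transporter Abcb10 rose by 0.67 and Hscb by 0.34.

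Regulators of respiratory gene transcription had 2 higher and 2 lower of 21 without EV, and 1 and 4 with EV. Gabpb1, a subunit of the ETS factor GABP, fell 1.74-fold without EV (log2 -0.80, SE 0.16, limma adjusted p = 0.00213) and the mitochondrial RNA polymerase Polrmt rose 1.52-fold (log2 0.60, SE 0.12, limma adjusted p = 0.00333). Mterf3 rose by log2 0.57. The coactivator Ppargc1a was called lower (log2 -0.44) at a mean signal of 3.15, among the dim genes of the table. Of 8 superoxide and peroxide defence genes 1 rose and 1 fell without EV (Glrx2, log2 0.66, and Glrx5, -1.11), and 1 rose with EV (Gpx4, 0.44). Of 9 partners of cytochrome c in apoptosis 2 rose without EV, Casp9 (log2 0.41) and Apaf1 (0.42), which form the complex that cytochrome c activates. With EV 1 rose (Bid, 0.41) and 1 fell (Diablo, -0.69).

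Vesicles changed none of the 89 genes detectably. With EV against without EV, 0 were called by limma and 10 had an unadjusted p under 0.05, of which 9 were lower, and 0 were called under each alternative run. Among all genes 0.198% were called, 0.18% higher and 0.018% lower. The largest differences were in complex I genes: Ndufb11 (log2 -0.87, SE 0.29, limma adjusted p = 0.542), the assembly factor Ndufaf1 (-0.48, SE 0.28), Ndufb6 (-0.47, SE 0.19) and Ndufa7 (-0.46, SE 0.14). Ndufa7 was named after its value was seen. Ndufb11 read 6.44, 7.64, 7.14, 7.02 and 7.67 without EV and 5.41, 5.90, 6.93, 6.50 and 6.83 with EV, so the groups overlapped. Cycs differed by -0.11 (SE 0.16). For 61 of the 89 genes the 95% interval of the difference lay within log2 0.5 on both sides of 0. The interval of 22 genes reached a fall of that size, and that of 6 a rise. In the surrounding lists 1 gene was called with EV against without: Cpox, of heme synthesis, fell by log2 0.98 (SE 0.17, limma adjusted p = 0.021).

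Small differences with EV lay mostly on the lower side, as they did for other bright genes. Of the 89, 67 were below 0, with a median of log2 -0.09 against 0.01 over all genes. Among genes with a mean log2 signal of 7 or more the median was -0.09 over all 3507 genes and -0.10 over the 57 respiratory ones, and 71.8% and 75.4% of them were below 0. Leaving out array 1 with EV, the one that stood apart, gave a median of -0.09 with 64 genes below 0.

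**Figure D4:**
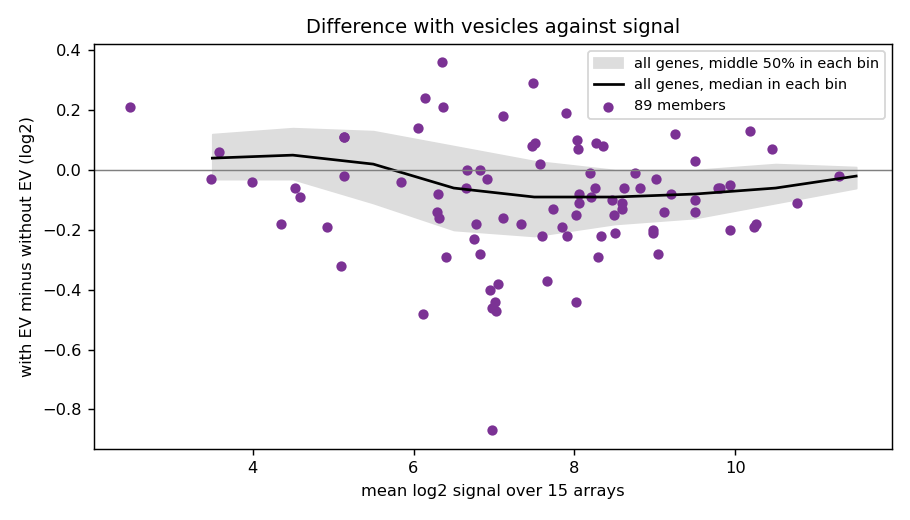
Each point is 1 of the 89 genes, with its mean log2 signal over 15 arrays (horizontal axis) and its difference with EV minus without EV in log2 (vertical axis); the line and band give the median and the middle 50% of all genes in bins 1 log2 unit wide. The line drops from 0.05 at signals of 4 to 5 to -0.09 at 7 to 9 and returns to -0.02 at 11 to 12, and most points scatter around it, with Ndufb11 lowest at -0.87.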

How the data were processed

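Gene expression of 15 samples was measured on Affymetrix Mouse Gene 2.0 arrays from 500 pg of total RNA, per the labels' protocols. The deposited values of 41345 probe sets lie on a log2 scale by their range, although the base is not stated. MAS5 is the 1 tool in the submitters' processing notes, and how the arrays were normalized is not given in the sources used here. Medians per array ran from 4.62 to 4.74, so values were used as deposited. Array number limits precision (median SE 0.13 on the log2 scale).

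Group means over all 15 arrays were fitted with limma 3.58.1 in R 4.3.3 for 22180 genes (residual degrees of freedom 12, prior 3.66) and adjusted by Benjamini-Hochberg within each two-sided comparison over all genes, after the fit was tested on simulated data. Named genes were those called in any comparison, the 2 largest differences per complex in each direction and comparison, the Sdh genes, Cycs, Cyc1, fixed isoforms, and up to 4 genes per list by adjusted p; Ndufa7 and Cs were added after their values were seen. Members and lists were chosen with earlier results of these data known. The 8 symbols on shared probe sets were not analysed here.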

Additional observations from a re-analysis of the deposited data

Results flagged for a closer look

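In 15 of 189 groups of 5 arrays (63 named genes in 3 groups, 7.94%) 1 array lay apart from the other 4 by the Dixon test at 5%, a test that chance alone passes in about 1 of 20 groups. In non-cultured cells these were Ndufv2 in replicate 1 (8.15, next value 7.94), Ndufaf3 in replicate 1 (5.69), Ndufc2 in replicate 2 (9.12), Cox7b2 in replicate 2 (2.73), and, in replicate 5, Ndufb6 (6.61, next value 7.29), Ndufaf2 (7.08, next value 7.74) and Cox4i2 (5.66). Without EV they were Ndufa12 in replicate 1 (8.57, next value 9.32), Ndufaf3 in replicate 1 (6.97), Uqcrc2 in replicate 2 (8.34), Cox7a2 in replicate 4 (9.11) and Sdhd in replicate 5 (6.81). With EV they were Ndufa6 in replicate 1 (8.58, next value 9.03), Ndufa4l2 in replicate 3 (4.31) and Atp5e in replicate 5 (10.33). The calls of Ndufa12, Cox7a2, Ndufaf2 and Atp5e with EV and of Ndufa6 without EV were made in all 15 fits that left out 1 array. Less stable were Ndufaf2 and Atp5e without EV, called in 9 and 11 of those fits, and Ndufc2 with EV, called in 9.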

How the results depend on the processing

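The counts of genes that fell stayed within 1.5 times the reported ones under all alternatives run. These were quantile normalization, median centring, no dim genes (the lowest 40%), mean or separate probe sets and spread from 2 groups. Others were a trended robust fit, array weights, a replicate block, and leaving out each array, or non-cultured replicates 4 and 5 together. In the fit of separate probe sets each gene was counted by its brightest one, with unchanged values. The dimmer probe sets did not enter that count, so it cannot show whether probe sets of a gene behave alike. Without EV the count was 18 to 22 against 19, and 16 to 21 with 1 array left out. With EV it was 18 after quantile normalization to 29 without dim genes, against 25, and 19 to 30 with 1 array left out; the 30 came without non-cultured replicate 5 and the 19 without non-cultured replicate 1. The count that rose without EV was 2 without dim genes, with array weights and with the replicate block, where Ndufaf1 joined Ndufa6, and 1 to 2 with 1 array left out. The count that rose with EV was 2 after quantile normalization (Ndufs7 and Ndufa6), 1 after median centring, without dim genes, with mean probe sets and with array weights, and 0 to 1 with 1 array left out. With EV against without EV the counts were 0 in each direction throughout. Without non-cultured replicates 4 and 5, calls ended for Ndufa6, Ndufa9 and Atp5e without EV and for Ndufc2, Ndufs4, Uqcr11 and Cox6a1 with EV, and were added for Ndufa1, Ndufaf1, Cox6b1 and Atp5h without EV and for Ndufa1, Ndufb6 and Atp5h with EV, among the named genes. Non-cultured replicates 4 and 5 had the lowest means over the 89 genes in their group (7.69 and 7.62, against 7.73 to 7.82). Leaving them out moved the median difference from log2 -0.18 to -0.24 without EV and from -0.28 to -0.36 with EV. Falls whose calls were added by that setting therefore gain no independent support from it. No called difference changed sign. Same-numbered arrays showed little shared deviation over all genes (1 of 15 pairs correlated over 0.1, from -0.125 to 0.187). The highest value was for array 1 with EV and array 1 without EV. Such correlations cannot settle whether same-numbered samples were prepared together, which was not tested. The replicate block gave 18 lower without EV and 24 with EV, and it ended the calls of Ndufa9 and Ndufaf2 without EV and Ndufs4 with EV, and added Ndufaf1 and Cox6b1 without EV. Quantile normalization ended 7 calls with EV (Ndufb5, Ndufc2, Ndufs4, Uqcr11, Cox6a1, Cox6b1, Cox8a) and that of Atp5e without EV. The cause of these changes was not tested. The table holds no detection values, and whether a dim gene exceeds background is unknown.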
